A study of Mus musculus with 16 samples.

Results

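The G1 and S cyclins and the inhibitors of their kinases were examined in microglia sorted from mouse retinas with oxygen-induced retinopathy (OIR) and from retinas without it (nonOIR). The 10 genes were taken as the rows of the deposited gene table whose symbol was Ccnd1, Ccnd2, Ccnd3, Ccne1, Ccne2, Ccna2, Cdkn1a, Cdkn1b, Cdkn1c or Cdkn2c, and all 10 were found among the 54532 genes listed. Microglia are the resident macrophages of the retina. In the OIR model, mouse pups are kept in high oxygen and returned to room air, after which the poorly vascularised retina becomes hypoxic and grows abnormal vessels.

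Both groups were Cx3cr1CreERT2:Rosa26-tdTomato reporter mice at postnatal day 17, and both had received 5 µl of tamoxifen at 21 mg/ml under the skin on postnatal day 1. The reporter is therefore switched on by a Cre enzyme that the Cx3cr1 promoter drives, a promoter active in microglia and also in other myeloid cells. The cells sequenced were sorted as CD45 low, CD11b+, Tom+, Ly6C- and Ly6G-, and there were 8 OIR and 8 nonOIR libraries. A lane code in the labels divides each group into 5 libraries of lane 1 and 3 of lane 2, and what else that code may mark (animals processed together, a preparation date) is not stated. Since no label ties a library to an animal of its own, p-values here reflect the spread among these samples, part of which may be technical.

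Cyclins are the regulatory subunits of the cyclin-dependent kinases (CDKs). D-type cyclins bind Cdk4 and Cdk6 and begin the phosphorylation of the retinoblastoma protein, which frees E2F transcription factors. E-type cyclins and then cyclin A bind Cdk2 and carry cells into and through DNA synthesis. The CIP/KIP inhibitors (p21, p27 and p57, encoded by Cdkn1a, Cdkn1b and Cdkn1c) bind cyclin-CDK complexes broadly, and the INK4 inhibitors, of which p18 (Cdkn2c) is one, bind Cdk4 and Cdk6. Microglia divide little in the undisturbed retina after development and can divide after injury.

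Library totals lay between 13.6 and 30.0 M counts (mega-counts), at 25.1 ± 3.24 M in OIR and 22.3 ± 4.28 M in nonOIR (SD, n = 8 each, two-sided exact permutation p = 0.163). OIR replicate 1 stood apart from the other libraries on the second principal component, and nonOIR replicate 8 on the third. On the first component (29.7% of the variance) OIR replicate 1 lay at -7.04, between the groups. The other OIR libraries lay at 6.36 to 36.5 and the nonOIR libraries at -35.7 to -15.3. Transcripts of 12 microglial markers were detected in both groups and summed to 36720 to 61860 CPM in OIR and 63400 to 77970 CPM in nonOIR, where CPM is a gene's count brought to a common, scaled library size. Of these 12 markers 4 passed the test as lower in OIR.

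In OIR the E-type and A-type cyclin transcripts rose, p21 and p18 transcripts rose with them, and the p57 transcript fell. Of the 9 genes with enough counts to be tested, 5 were higher in OIR (Ccne1, Ccne2, Ccna2, Cdkn1a and Cdkn2c) and 1 was lower (Cdkn1c) by edgeR's quasi-likelihood test, at a threshold of 0.05 on the adjusted p. Over all 12496 genes tested, 6.39% passed as higher and 4.56% as lower, 10.9% in all. The median log2 fold change of the 9 tested genes was 1.33, and that of all tested genes was -0.03. Ccnd1, Ccnd3 and Cdkn1b did not pass, and Ccnd2 had too few counts to be tested. In bulk RNA of a sorted population, a change in how many cells transcribe a gene and a change in RNA per cell cannot be told apart.

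**Figure D1:**
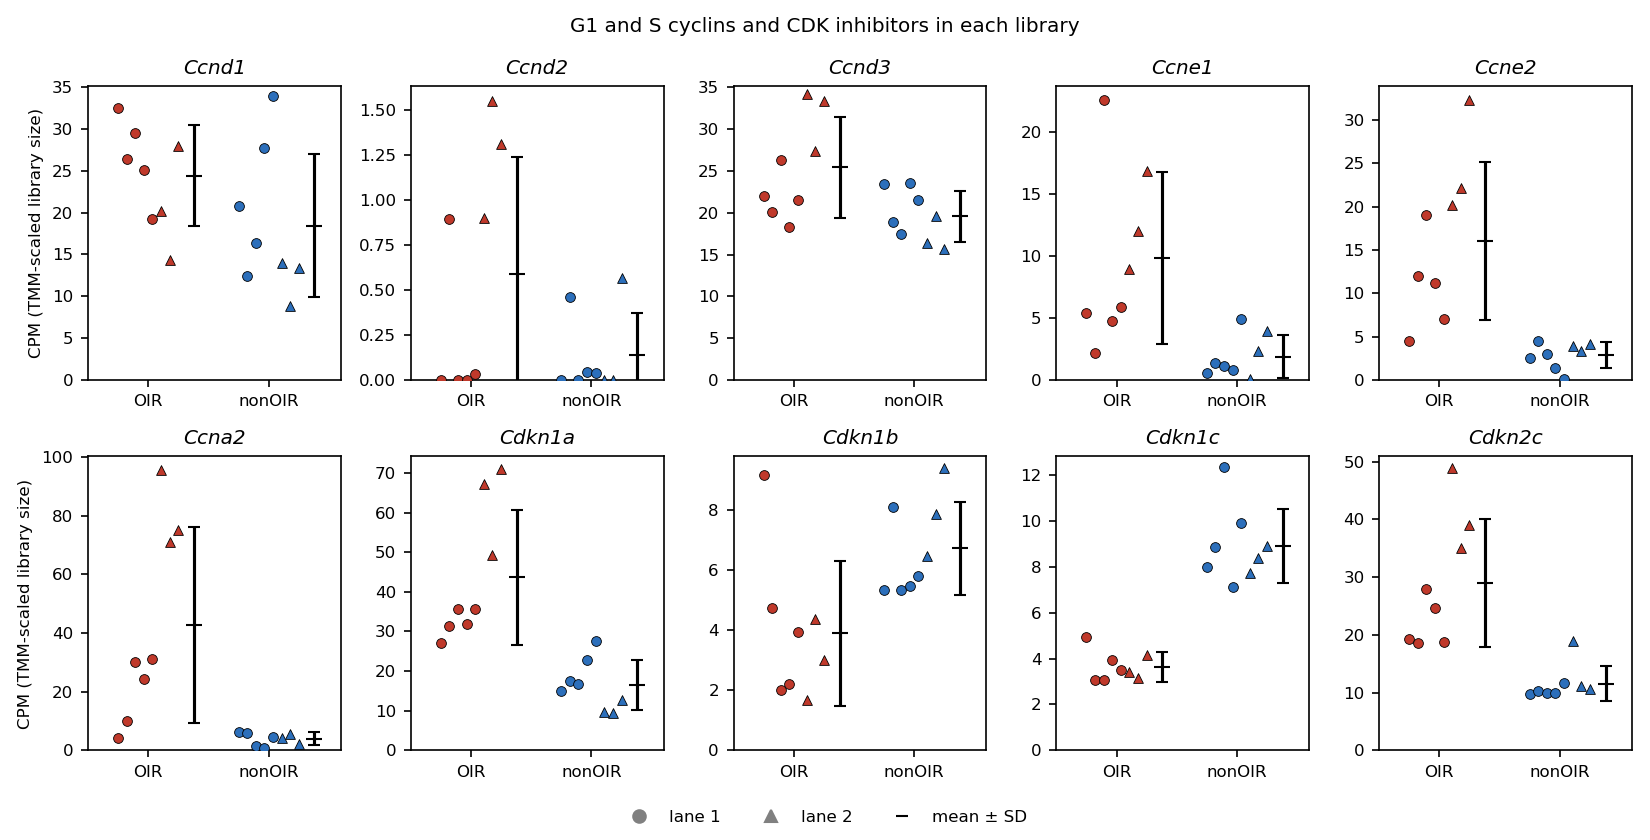
CPM after scaling of the library sizes (y axis, linear, from 0) of each of the 10 genes in the 8 OIR (left) and 8 nonOIR (right) libraries. Circles are lane 1, triangles are lane 2, and bars are mean ± SD. Ccne2 and Cdkn1c separate the groups without overlap, while Ccnd1 and Ccnd3 overlap.

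The D-type cyclins, which link outside signals to the start of the cycle, did not pass the test in either direction. Ccnd1 (ENSMUSG00000070348, chr7:144929931-144939925, minus strand, mm10) encodes cyclin D1. Its lowest, median and highest values were 14.4, 25.7 and 32.5 CPM in OIR, against 8.79, 15.2 and 33.9 CPM in nonOIR. The ranges overlapped, and nonOIR replicate 5 was the highest of all 16 libraries. The mean was 24.4 ± 6.02 CPM in OIR and 18.4 ± 8.52 CPM in nonOIR (SD, n = 8 each). The log2 fold change of Ccnd1 was 0.41 ± 0.24 (SE), with a 95% interval of -0.10 to 0.92 and an edgeR adjusted p of 0.321. An increase of under 2-fold is thus inside the interval, as is no change.

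Ccnd3 (ENSMUSG00000034165, chr17:47505051-47599691, plus strand) encodes cyclin D3. Its lowest, median and highest values were 18.3, 24.2 and 34.2 CPM in OIR, against 15.7, 19.3 and 23.6 CPM in nonOIR. Of the OIR libraries 4 lay above every nonOIR library, and the other 4 lay inside the nonOIR range. The log2 fold change was 0.38 ± 0.15 (SE), with a 95% interval of 0.07 to 0.69 before adjustment over all genes and an edgeR adjusted p of 0.115. The lanes gave different values. In lane 1 the means were 21.7 ± 2.97 CPM in OIR and 20.98 ± 2.76 CPM in nonOIR (SD, n = 5 each), a log2 fold change of 0.05 with an edgeR adjusted p of 0.916. In lane 2 they were 31.7 ± 3.73 CPM in OIR and 17.2 ± 2.08 CPM in nonOIR (SD, n = 3 each), a log2 fold change of 0.93 with an edgeR adjusted p of 0.0119. The difference between the lanes did not itself pass the test (0.83 on the log2 scale, edgeR adjusted p = 0.102). A processed pseudogene, Ccnd3-ps, exists, so reads could be split between the copies in counting.

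Ccnd2 (ENSMUSG00000000184, chr6:127125162-127152193, minus strand) encodes cyclin D2 and was close to absent. It had 0 counts in 3 of 8 OIR and 4 of 8 nonOIR libraries, where a count of 0 allows up to 3 counts in a library. The other libraries had 1 to 35 counts in OIR and 1 to 13 counts in nonOIR, and the sums were 111 counts in OIR and 26 counts in nonOIR. The highest values were 1.55 CPM in OIR and 0.565 CPM in nonOIR, and the 3 OIR libraries of lane 2 all had counts. It did not reach the minimum count for the test, and in a fit without that minimum its log2 fold change was 2.02 ± 1.25 (SE) with an edgeR adjusted p of 0.381.

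The make-up of the D-type cyclins differed little between the groups. Per kilobase of annotated exon, Ccnd1 made 63.2 ± 9.36% of their summed level in OIR and 61.4 ± 8.70% in nonOIR (SD, n = 8 each). Ccnd3 made 36.0 ± 8.64% in OIR and 38.3 ± 8.60% in nonOIR, and Ccnd2 under 3% in every library. These differences in share are smaller than the spread between libraries. The shares themselves rest on the annotated exon lengths, 4709 bases for Ccnd1 and 8775 bases for Ccnd3.

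Both E-type cyclins, the partners of Cdk2 at the start of DNA synthesis, rose in OIR by a mean of more than 5-fold. Ccne2 (ENSMUSG00000028212, chr4:11191351-11204779, plus strand), encoding cyclin E2, had lowest, median and highest values of 4.49, 15.5 and 32.3 CPM in OIR, against 0.116, 3.19 and 4.46 CPM in nonOIR. Every OIR library lay above every nonOIR library, with OIR replicate 1 only just above the highest nonOIR value. Groups without overlap were found for 2.02% of all tested genes (1.34% higher and 0.688% lower in OIR), and among the 10 genes for Ccne2 and Cdkn1c. Ccne2 averaged 16.1 ± 9.13 CPM in OIR and 2.86 ± 1.49 CPM in nonOIR (SD, n = 8 each), a ratio of 5.62. The log2 fold change of Ccne2 was 2.49 ± 0.48 (SE, edgeR adjusted p = 0.00286). It was 2.25 in lane 1, where it did not pass (edgeR adjusted p = 0.0738), and 2.75 in lane 2, where it did (edgeR adjusted p = 0.000319).

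Ccne1 (ENSMUSG00000002068, chr7:38097984-38107534, minus strand), encoding cyclin E1, had lowest, median and highest values of 2.17, 7.41 and 22.5 CPM in OIR, against 0.0446, 1.22 and 4.93 CPM in nonOIR. Of the OIR libraries 6 lay above every nonOIR library, and the lowest OIR value, in replicate 2, was below 3 of the nonOIR values. It averaged 9.81 ± 6.92 CPM in OIR and 1.88 ± 1.72 CPM in nonOIR (SD, n = 8 each), a ratio of 5.22, and a log2 fold change of 2.37 with an SE of 0.60 (edgeR adjusted p = 0.0163). In lane 1 the log2 fold change was 2.20 (edgeR adjusted p = 0.112) and in lane 2 it was 2.63 (edgeR adjusted p = 0.0710), so the rise passed in the 16 libraries together and in neither lane alone. The nonOIR libraries held as few as 1 count of Ccne1, so the size of the ratio is less certain than for the other genes.

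RefSeq promoter windows on GRCm38.p6, of which the 250 bases before the transcript start were read, covered 5 of the 10 genes (Ccnd3, Ccne1, Cdkn1a, Cdkn1b and Cdkn2c) with 8 windows. Ccnd1, Ccnd2, Ccne2, Ccna2 and Cdkn1c were not searched. Motif letters were searched on both strands. The full E2F site in the forms TTTGGCGC, TTTCGCGC, TTTCCCGC and TTTGCCGC, present in 1.86% of all 32851 windows, was in none of the 8, nor was the cell cycle homology region TTTGAA, present in 16.0% of all windows. The 6-letter E2F core GCGGGA, whose reverse complement is contained in one of the full forms, is present in 16.9% of all windows. It was found in the windows of Ccne1 and Cdkn2c. The stretches of 30 bases around the Ccne1 matches are shown because Ccne1 is one of the cyclins that rose. They are written along the gene's strand, with the core or its reverse complement in capitals. A match is a description of these letters and not a mapped site. The start here is that of RefSeq. The GENCODE span of Ccne1 given above ends at 38107534, the gene's start on the minus strand. The stretch at chr7:38107491-38107520 thus lies inside that span, and the other stretch crosses its edge.
Ccne1, 47 to 42 bases before the start (chr7:38107520-38107549, minus strand): cggggcgcgaggGCGGGAcggggccggtgc
Ccne1, 7 to 2 bases before the start (chr7:38107491-38107520, minus strand): ccgcgcgctgggatttttaaatgTCCCGCt

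Ccna2 (ENSMUSG00000027715, chr3:36564865-36572150, minus strand), encoding cyclin A2, the partner of Cdk2 in S phase and of Cdk1 later, had the largest fold change of the 9 tested genes. Across libraries its lowest, median and highest values were 4.25, 30.7 and 95.4 CPM in OIR, against 0.761, 4.47 and 6.44 CPM in nonOIR. Of the OIR libraries 7 lay above every nonOIR library, and OIR replicate 1 lay inside the nonOIR range. The mean was 42.7 ± 33.4 CPM in OIR and 3.92 ± 2.19 CPM in nonOIR (SD, n = 8 each), a ratio of 10.9. The log2 fold change of Ccna2 was 3.45 ± 0.56 (SE, edgeR adjusted p = 0.000807).

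The spread of Ccna2 within OIR followed the lane code. In lane 1 it averaged 20.1 ± 12.2 CPM in OIR and 3.89 ± 2.63 CPM in nonOIR (SD, n = 5 each), a log2 fold change of 2.38 that just missed the threshold (edgeR adjusted p = 0.0509). In lane 2 it averaged 80.5 ± 13.1 CPM in OIR and 3.98 ± 1.72 CPM in nonOIR (SD, n = 3 each), a log2 fold change of 4.38 (edgeR adjusted p = 0.000106). The nonOIR libraries were alike in both lanes. The difference of 1.95 between the lanes on the log2 scale had an edgeR adjusted p of 0.321 and did not pass.

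Among the inhibitors, 2 rose and 1 fell. Cdkn1a (ENSMUSG00000023067, chr17:29090976-29100727, plus strand) encodes p21, which arrests the cycle when induced by p53 and can also help assemble cyclin D complexes. Its lowest, median and highest values were 26.97, 35.7 and 71.1 CPM in OIR, against 9.36, 15.8 and 27.7 CPM in nonOIR. Of the OIR libraries 7 lay above every nonOIR library, and OIR replicate 1 fell just under nonOIR replicate 5. It averaged 43.6 ± 17.0 CPM in OIR and 16.4 ± 6.32 CPM in nonOIR (SD, n = 8 each), a ratio of 2.66, and a log2 fold change of 1.41 with an SE of 0.25 (edgeR adjusted p = 0.00158).

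Cdkn1a was the only one of the 9 tested genes whose difference between the lanes passed the test, as it did for 0.496% of all tested genes. For the other genes this does not show that the lanes were alike. In lane 1 it averaged 32.3 ± 3.60 CPM in OIR and 19.9 ± 5.25 CPM in nonOIR (SD, n = 5 each), a ratio of 1.62 and a log2 fold change of 0.70 (edgeR adjusted p = 0.0471). In lane 2 it averaged 62.5 ± 11.6 CPM in OIR and 10.6 ± 1.89 CPM in nonOIR (SD, n = 3 each), a ratio of 5.89 and a log2 fold change of 2.61 (edgeR adjusted p = 0.000145). The lane 2 libraries were thus higher than those of lane 1 in OIR and lower in nonOIR. The difference between the lanes was 1.86 ± 0.28 on the log2 scale (SE, edgeR adjusted p = 0.00701).

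The p53 response element was searched in its simplest form, CATG, any 6 bases and CATG again, which was present in 0.49% of all windows. The window of the upstream Cdkn1a start held 1 match, 48 to 35 bases before the start, and the window of its other start held none. The 250 bases are shown on the plus strand because Cdkn1a is a textbook p53 target and rose in OIR, with the match in capitals.
Cdkn1a (chr17:29090729-29090978, plus strand): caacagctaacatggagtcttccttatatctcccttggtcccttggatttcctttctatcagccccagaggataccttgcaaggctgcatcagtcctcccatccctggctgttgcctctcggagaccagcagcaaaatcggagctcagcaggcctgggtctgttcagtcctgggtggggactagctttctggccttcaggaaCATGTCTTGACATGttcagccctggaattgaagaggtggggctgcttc

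Cdkn2c (ENSMUSG00000028551, chr4:109660876-109667189, minus strand) encodes the INK4 inhibitor p18. Across libraries its lowest, median and highest values were 18.6, 26.3 and 48.9 CPM in OIR, against 9.70, 10.5 and 18.9 CPM in nonOIR. Of the OIR libraries 6 lay above every nonOIR library, and the overlap came from nonOIR replicate 6, which stood above the other nonOIR libraries. It averaged 29.0 ± 11.1 CPM in OIR and 11.6 ± 3.06 CPM in nonOIR (SD, n = 8 each), a ratio of 2.51, and a log2 fold change of 1.33 with an SE of 0.22 (edgeR adjusted p = 0.000785). The rise passed within each lane, with 1.09 on the log2 scale in lane 1 (edgeR adjusted p = 0.00500) and 1.64 in lane 2 (edgeR adjusted p = 0.00365).

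The window of the upstream Cdkn2c start held 3 matches to the E2F core, a pair of them side by side, and the window of its other start held none. Both are RefSeq starts that lie inside the GENCODE gene span given above, so these windows are within the annotated gene. The matches are shown because Cdkn2c rose together with the cyclins, along the gene's strand and with the core or its reverse complement in capitals.
Cdkn2c, 152 to 147 bases before the start (chr4:109666891-109666920, minus strand): gcgagagggcagGCGGGAgcgccagcgaac
Cdkn2c, 24 to 13 bases before the start (chr4:109666760-109666789, minus strand): gcccggcctTCCCGCTCCCGCggcgcccta

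Cdkn1c (ENSMUSG00000037664, chr7:143458339-143461050, minus strand) encodes p57, an imprinted inhibitor found in many quiescent cells, and it fell in OIR. Its lowest, median and highest values were 3.06, 3.45 and 4.93 CPM in OIR, against 7.12, 8.63 and 12.3 CPM in nonOIR. Every OIR library lay below every nonOIR library, and the spread within each group was small. It averaged 3.65 ± 0.654 CPM in OIR and 8.90 ± 1.62 CPM in nonOIR (SD, n = 8 each), a ratio of 0.410. Its log2 fold change of -1.29 ± 0.18 (SE) had the lowest edgeR adjusted p of the 9 genes, 0.000285. The value was close in the lanes, at -1.32 in lane 1 (edgeR adjusted p = 0.0155) and -1.17 in lane 2 (edgeR adjusted p = 0.0354).

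Cdkn1b (ENSMUSG00000003031, chr6:134920401-134925513, plus strand) encodes p27, an inhibitor known to accumulate in resting cells and to be controlled largely by degradation of the protein. From lowest through median to highest, it had 1.66, 3.47 and 9.18 CPM in OIR, against 5.33, 6.14 and 9.38 CPM in nonOIR. Of the OIR libraries 7 lay below every nonOIR library, and OIR replicate 1 lay near the top of the nonOIR range. It averaged 3.89 ± 2.42 CPM in OIR and 6.72 ± 1.54 CPM in nonOIR (SD, n = 8 each). The log2 fold change of Cdkn1b was -0.79 ± 0.31 (SE), with a 95% interval of -1.44 to -0.14 and an edgeR adjusted p of 0.113, so it did not pass. Without OIR replicate 1 it was -1.10 with an edgeR adjusted p of 0.00973, which does pass, and 1 library thus decided the call. The log2 fold change was -0.44 in lane 1 (edgeR adjusted p = 0.659) and -1.35 in lane 2 (edgeR adjusted p = 0.0585).

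**Figure D2:**
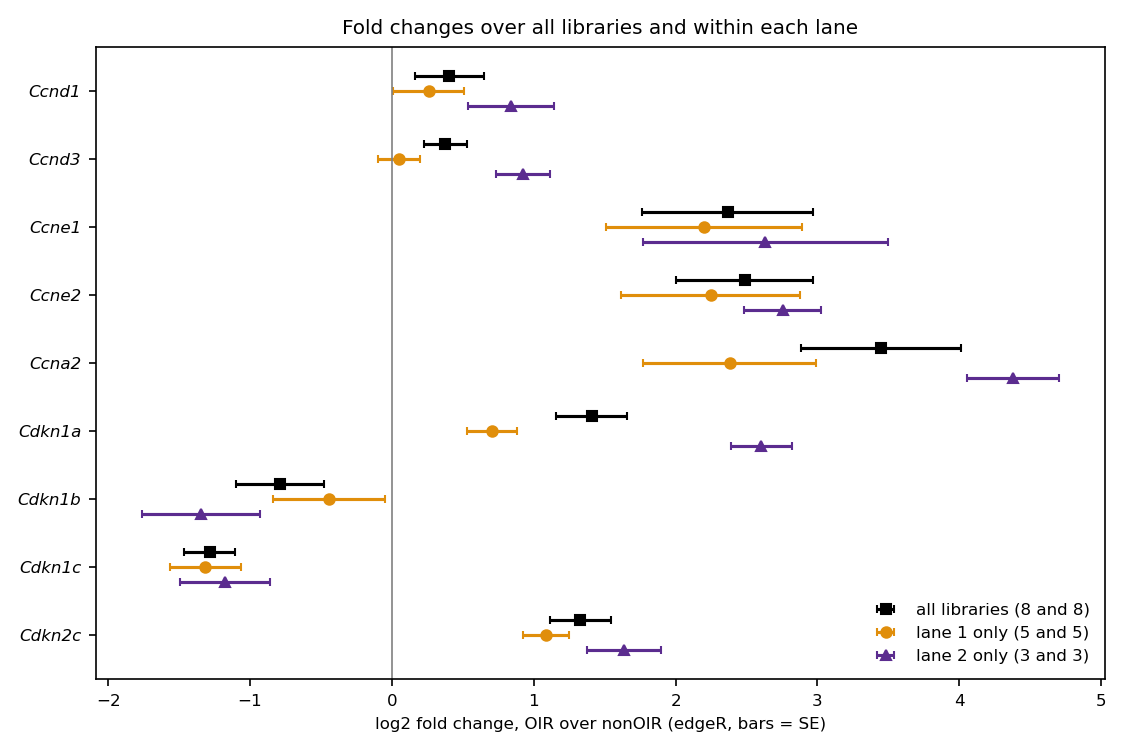
Log2 fold change of OIR over nonOIR (x axis) of the 9 tested genes, from edgeR over all libraries (squares), over lane 1 only (circles) and over lane 2 only (triangles), with SE as bars. Cdkn1a lies at 0.70 in lane 1 and 2.61 in lane 2, while Cdkn1c lies near -1.29 in all fits.

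Within lane 1 alone, 3 of the 9 genes passed (Cdkn1a and Cdkn2c higher, Cdkn1c lower), where 3.33% of all genes tested passed. Within lane 2 alone, 6 passed (Ccnd3, Ccne2, Ccna2, Cdkn1a and Cdkn2c higher, Cdkn1c lower), where 15.4% of all genes tested passed, and Ccnd2, which had enough counts there to be tested, did not pass. The direction was the same in both lanes for all 9 genes. The OIR libraries of lane 2, replicates 6 to 8, were the 3 highest OIR libraries for Ccnd3, Ccne2, Ccna2, Cdkn1a and Cdkn2c. OIR replicate 1 was the lowest OIR library for Ccne2, Ccna2 and Cdkn1a, and the highest for Ccnd1, Cdkn1b and Cdkn1c. With OIR replicate 1 and nonOIR replicate 8 both left out, the 5 genes still passed as higher, at log2 fold changes of 2.70 (Ccne1), 2.73 (Ccne2), 3.53 (Ccna2), 1.44 (Cdkn1a) and 1.38 (Cdkn2c), and Cdkn1c passed as lower at -1.36.

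Levels of different genes were compared per kilobase of annotated exon. In OIR the order was Cdkn1a at 12.3 ± 4.79, Cdkn2c at 10.8 ± 4.12 and Ccna2 at 10.5 ± 8.17 CPM per kilobase (SD, n = 8), and these 3 did not differ beyond their spread. In nonOIR the first 3 were Cdkn1a at 4.62 ± 1.78, Cdkn1c at 4.37 ± 0.795 and Cdkn2c at 4.30 ± 1.14 CPM per kilobase (SD, n = 8), which did not differ beyond their spread either. Cdkn1c therefore had rank 8 of 10 in OIR, at 1.79 ± 0.321 CPM per kilobase, against rank 2 in nonOIR. Ccna2 had rank 3 in OIR, against rank 7 in nonOIR at 0.961 ± 0.536 CPM per kilobase. Ccne2 reached 4.59 ± 2.61 CPM per kilobase in OIR and 0.818 ± 0.426 in nonOIR, while Ccne1 lay between 0.816 and 8.47 in OIR and between 0.0168 and 1.85 in nonOIR. Ccnd1 had the highest mean of the D-type cyclins per kilobase in both groups, at 5.18 ± 1.28 CPM per kilobase in OIR and 3.91 ± 1.81 in nonOIR. That order rests on the exon lengths, 4709 bases for Ccnd1 and 8775 bases for Ccnd3. Without division by length, Ccnd1 averaged 24.4 CPM and Ccnd3 25.4 CPM in OIR, and 18.4 and 19.6 CPM in nonOIR. The values of neighbours in the order overlapped in each case but 1, the step between Cdkn1b at 0.855 ± 0.531 and Ccnd2 at 0.0623 ± 0.0693 CPM per kilobase in OIR.

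**Figure D3:**
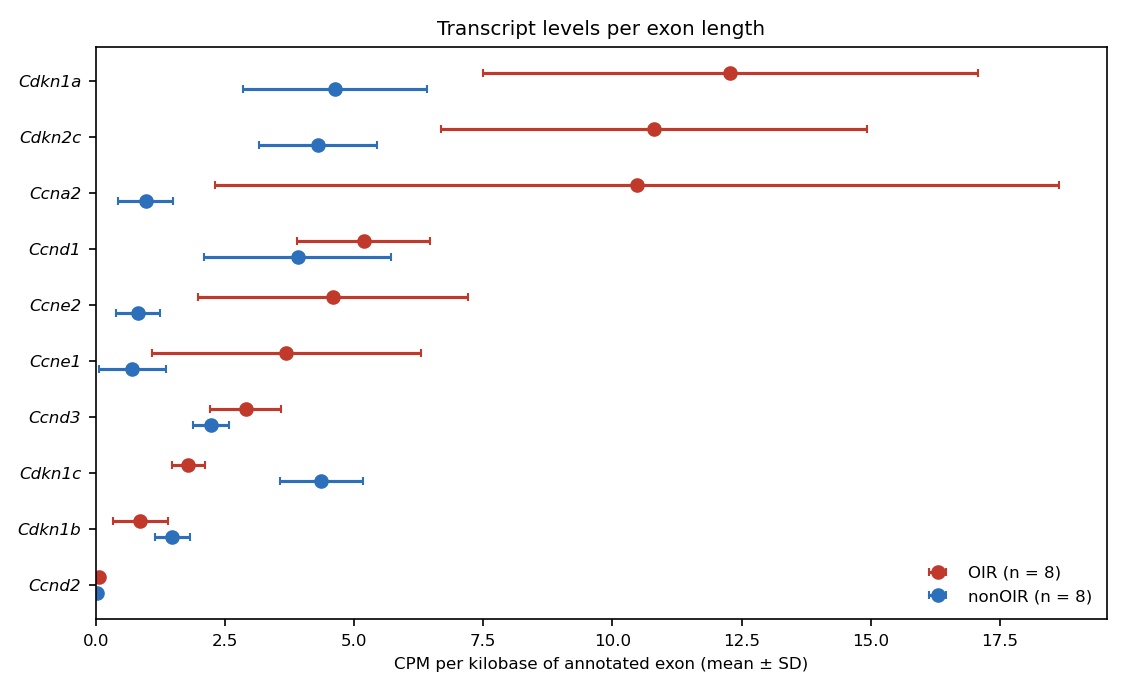
Level of each gene as CPM per kilobase of annotated exon (x axis, linear), as mean ± SD over 8 OIR libraries (upper point of each pair) and 8 nonOIR libraries (lower point). Cdkn1c lies at 1.79 in OIR and 4.37 in nonOIR, and Ccna2 at 10.5 in OIR and 0.961 in nonOIR.

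The make-up of the inhibitors differed between the groups. Of the summed level of the 4 inhibitors per kilobase, Cdkn1c made 7.58 ± 2.71% in OIR and 29.7 ± 4.76% in nonOIR (SD, n = 8 each), with ranges of 4.28 to 12.6% in OIR and 23.6 to 38.6% in nonOIR that did not overlap. Cdkn1b made 3.86 ± 3.08% in OIR and 10.2 ± 2.91% in nonOIR. Cdkn1a made 47.1 ± 4.44% in OIR and 30.8 ± 9.17% in nonOIR, and Cdkn2c 41.5 ± 4.42% in OIR and 29.4 ± 7.78% in nonOIR. The shares are tied to each other, since a rise in one lowers the rest, and they carry no test of their own.

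**Figure D4:**
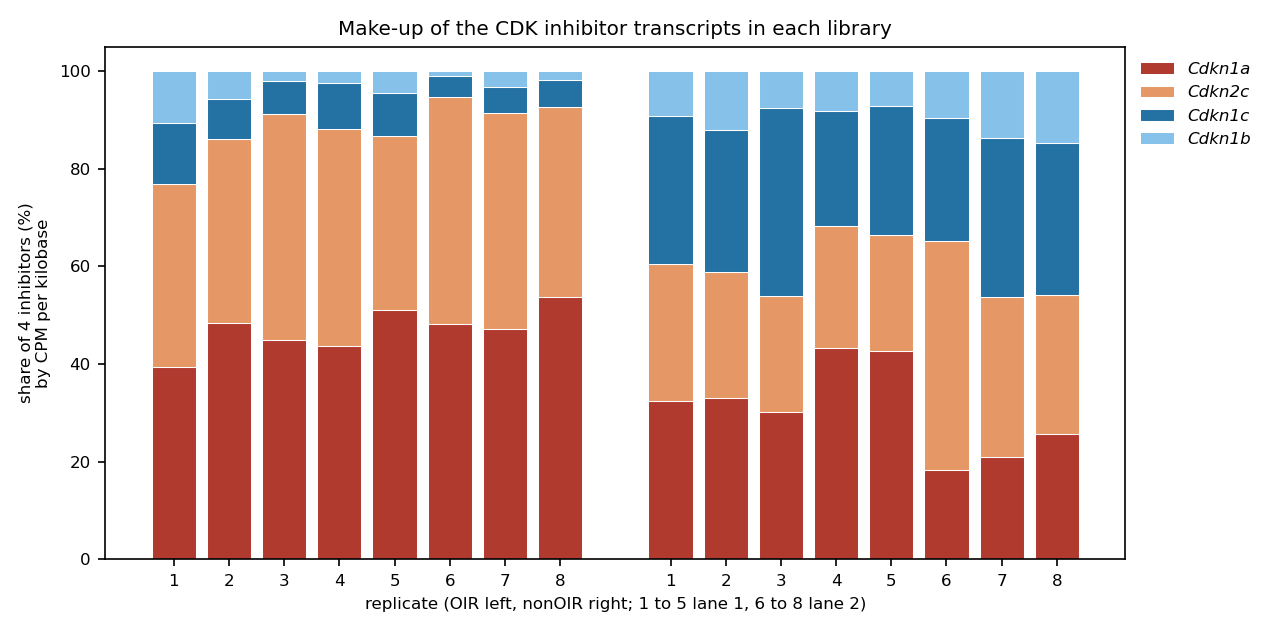
Share of each inhibitor in the summed CPM per kilobase of the 4 CDK inhibitors (y axis, percent, from 0 to 100), 1 bar per library, with OIR replicates on the left and nonOIR replicates on the right. The Cdkn1c share lies between 4.28 and 12.6% in OIR and between 23.6 and 38.6% in nonOIR.

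Exons of 7 of the 10 genes overlap exons of another gene on the opposite strand, and because the kit is unstranded, reads in the shared stretches cannot be assigned. The shared part was 30.7% of the Cdkn1c exons (with Gm44732), 23.4% of the Ccnd1 exons (with LTO1), 17.4% of the Ccne2 exons (with Ints8), 12.5% of the Ccna2 exons (with Exosc9) and under 8% elsewhere. Ccne1, Cdkn1b and Cdkn2c had no such overlap. The genes that overlap the cyclins that rose did not pass the test themselves. Exosc9 stood at 34.6 CPM in OIR and 34.1 CPM in nonOIR (log2 fold change 0.02, edgeR adjusted p = 0.942), and Ints8 at 34.99 CPM in OIR and 32.3 CPM in nonOIR (log2 fold change 0.12, edgeR adjusted p = 0.706). Gm44732 had 0 counts in both groups.

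The kinases and direct regulators of these cyclins changed less evenly. Of 27 listed genes 26 were tested, 6 passed as higher and 3 as lower, with a median log2 fold change of 0.19. Over all tested genes 6.39% passed as higher and 4.56% as lower. The 3 lower genes were Ccng2 (-0.81, edgeR adjusted p = 0.000435), Cables1 (-0.57, edgeR adjusted p = 0.0130) and Fbxo4 (-0.47, edgeR adjusted p = 0.0465). Dtl had the largest rise of the list (2.24, edgeR adjusted p = 0.0148). Cdk4, the partner of the D-type cyclins, rose to 140 ± 30.4 CPM in OIR, against 107 ± 12.7 CPM in nonOIR (log2 fold change 0.38, edgeR adjusted p = 0.0456). This call was close to the threshold and was lost in 10 of the 16 fits that left out 1 library, and in lane 1 alone (0.27, edgeR adjusted p = 0.0974). Cdk6, its close relative, had a log2 fold change of 0.20 (edgeR adjusted p = 0.523), and Cdk2, the partner of cyclins E and A, one of 0.25 (edgeR adjusted p = 0.284). The kinase genes of G1 and S thus showed small differences beside the fold changes of Ccne1, Ccne2 and Ccna2. Cdk1, the mitotic kinase that also binds cyclin A, rose to 53.9 ± 27.8 CPM in OIR, against 17.0 ± 3.28 CPM in nonOIR (log2 fold change 1.66, edgeR adjusted p = 0.000584). Cks1b, which lets the ligase subunit Skp2 recognise p27, rose to 26.95 ± 20.2 CPM in OIR, against 7.30 ± 2.03 CPM in nonOIR (log2 fold change 1.88, edgeR adjusted p = 0.00334). Skp2 itself had a log2 fold change of 0.59 and did not pass (edgeR adjusted p = 0.201). Wee1, the kinase that holds Cdk1 inactive, rose with a log2 fold change of 1.91 (edgeR adjusted p = 0.0127).

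Of the other CDK inhibitor genes, 5 of 6 were tested and 1 passed. Cdkn3, which encodes a phosphatase of CDKs and is itself high in dividing cells, rose to 12.6 ± 9.59 CPM in OIR, against 1.71 ± 1.17 CPM in nonOIR (log2 fold change 2.88, edgeR adjusted p = 0.00159). The INK4 gene Cdkn2d (p19) had 22.6 ± 8.13 CPM in OIR and 14.9 ± 2.79 CPM in nonOIR, and its log2 fold change of 0.60 did not pass (edgeR adjusted p = 0.0679). The Cdkn2d value passed with lane as a covariate (0.56, edgeR adjusted p = 0.0342) and in lane 2 alone (0.94, edgeR adjusted p = 0.0213), but not in lane 1 (0.37, edgeR adjusted p = 0.466). The INK4 gene Cdkn2b (p15) stood at 0.897 CPM in OIR and 0.748 CPM in nonOIR (log2 fold change 0.25, edgeR adjusted p = 0.896), and Cdkn2a had 44 counts over the OIR libraries and 9 over the nonOIR libraries and was not tested. Of the INK4 genes, Cdkn2c and Cdkn2d were therefore the ones with clear expression in these cells.

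Most listed genes of DNA synthesis and mitosis rose in OIR along with Ccne1, Ccne2 and Ccna2. Of 26 listed E2F targets of the G1/S step, 18 passed as higher, where 6.39% of all tested genes did. The other 8 did not pass, and the median log2 fold change of the list was 1.32. Within lane 1 alone 4 passed as higher, and within lane 2 alone 19. Of all genes tested, 3.33% passed in either direction in lane 1 alone and 15.4% in lane 2 alone, so calls of any gene were more frequent in lane 2. Examples of the E2F targets were Rrm2, a subunit of ribonucleotide reductase (log2 fold change 2.92, edgeR adjusted p = 2.98e-05), and Mcm5, a subunit of the replicative helicase (1.88, edgeR adjusted p = 0.000156). Tk1, thymidine kinase, and Mcm7, another helicase subunit, rose with log2 fold changes of 2.36 and 1.33 (edgeR adjusted p = 0.000709 and 0.000741). Of the G2 and M cyclins 3 of 5 were tested and all 3 passed as higher: Ccnb1 (3.33, edgeR adjusted p = 0.000107), Ccnb2 (3.55, edgeR adjusted p = 0.000550) and Ccnf (2.05, edgeR adjusted p = 0.0102). The meiotic cyclin gene Ccna1 had 0 counts in all libraries. Of 10 markers of cycling cells 9 passed as higher (6 in lane 1 alone and 10 in lane 2 alone), with a median log2 fold change of 3.08, among them Ube2c (3.52), Birc5 (3.53), Plk1 (3.70) and Top2a (3.24). Those that passed include Cdk1, also counted among the kinases and regulators above. Mki67, the gene of the Ki-67 antigen, had 9.45 ± 6.80 CPM in OIR and 2.71 ± 3.34 CPM in nonOIR, and its log2 fold change of 1.82 did not pass (edgeR adjusted p = 0.168). It passed with lane as a covariate (edgeR adjusted p = 0.0265) and in lane 2 alone (6.23 on the log2 scale, edgeR adjusted p = 0.00128), but not in lane 1 (1.39, edgeR adjusted p = 0.354).

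Genes known to be induced by p53, of which Cdkn1a is one, moved in both directions. Of 24 listed targets other than Cdkn1a 21 were tested, 3 passed as higher and 2 as lower, with a median log2 fold change of 0.10. Over all tested genes 6.39% passed as higher and 4.56% as lower. Bax, which promotes cell death at mitochondria, rose (0.64, edgeR adjusted p = 0.00438), as did the cyclin G1 gene Ccng1 (0.56, edgeR adjusted p = 0.0195). Plk2 had the largest log2 fold change of the list, 2.83 (edgeR adjusted p = 0.0346), with values down to 0 CPM in both groups. It passed in lane 2 (5.35, edgeR adjusted p = 0.000292) and not in lane 1 (1.41, edgeR adjusted p = 0.560). The antiproliferative gene Btg2 fell (-0.68, edgeR adjusted p = 0.00209), and so did the stress gene Sesn1 (-0.32, edgeR adjusted p = 0.0309). Btg2 passed in each lane, whereas Sesn1 passed in neither lane alone (edgeR adjusted p = 0.173 in lane 1 and 0.168 in lane 2) and lost its call in 8 of the 16 fits that left out 1 library. Genes known to be induced by FOXO factors, which also drive Cdkn1b in other cells, included 1 higher and 3 lower of 14 tested, with a median of -0.22. Sesn1, already counted among the p53 targets, was among these lower genes. The cyclin G2 gene Ccng2, a FOXO target linked to arrest, fell to 260 ± 29.9 CPM in OIR, against 457 ± 103 CPM in nonOIR (-0.81, edgeR adjusted p = 0.000435). Txnip, a brake on thioredoxin and glucose uptake, fell (-0.53, edgeR adjusted p = 0.00462), and Klf2, a transcription factor of quiescence, rose (0.84, edgeR adjusted p = 0.0119). Of 17 cyclin genes with roles outside the G1 and S steps 14 were tested, and Ccng1 and Ccng2, also counted above, were the ones that passed.

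**Figure D5:**
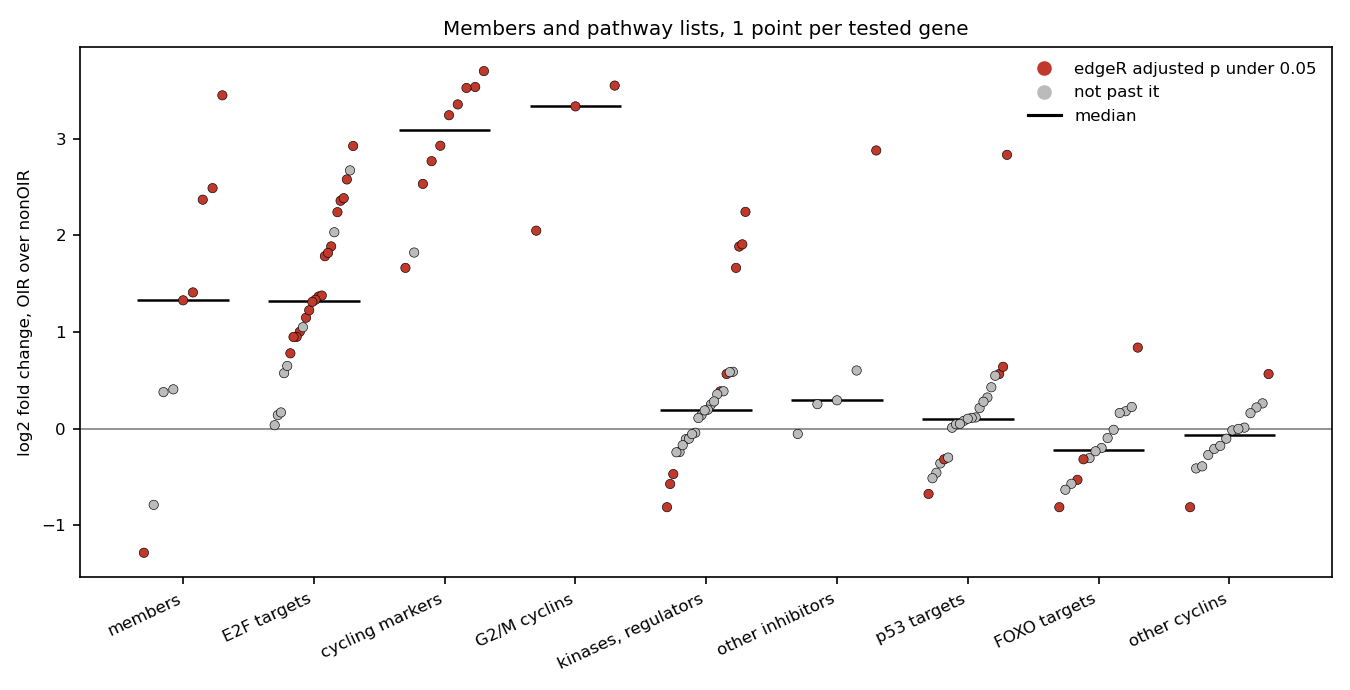
Log2 fold change of OIR over nonOIR (y axis) of the 9 tested genes and of the tested genes of each related list, 1 point per gene, red where the edgeR adjusted p was under 0.05, with the median as a line. The medians are 1.33 for the 9 genes, 1.32 for the E2F targets, 0.10 for the p53 targets and -0.22 for the FOXO targets.

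Markers of other cells moved with the groups in part. The summed level of 9 red cell genes was 7.59 to 301 CPM in OIR and 3.38 to 32.9 CPM in nonOIR, led by Hbb-bs, a globin gene with near-identical copies that make its count uncertain, and 2 of the 3 tested passed as higher. The summed level of 12 monocyte and macrophage genes was 85.9 to 223 CPM in OIR and 28.3 to 102 CPM in nonOIR, led by F13a1 and Cd44. Of 7 tested, Fn1 and Cd44 passed as higher, and the median log2 fold change was 1.51. Fn1 and Cd44 both passed in lane 2 alone (edgeR adjusted p = 0.00118 and 0.045) and not in lane 1 alone (edgeR adjusted p = 0.0686 and 0.18). Plac8 (1.96), Itgal (1.68), S100a4 (1.51) and F13a1 (1.42) had positive log2 fold changes that did not pass. The monocyte gene Ly6c2 was at 0 in all libraries, and Ccr2 stood at 5.22 CPM in OIR and 5.44 CPM in nonOIR. The part of such cells in the cyclin and inhibitor values was not tested. Rod photoreceptor genes summed to 46.8 to 503 CPM in OIR and 71.9 to 617 CPM in nonOIR. Endothelial and pericyte genes summed to 12.1 to 37.7 CPM in OIR and 21.4 to 43.2 CPM in nonOIR. Retinal progenitor and Müller cell genes summed to 2143 to 19540 CPM in OIR and 1256 to 10520 CPM in nonOIR, nearly all from Apoe, which microglia also express, and Glul passed as lower. Neutrophil genes summed to 188 to 339 CPM in OIR and 216 to 372 CPM in nonOIR, mostly from Csf3r, with Ly6g, Elane, Ngp and Retnlg at 0. Lymphocyte genes summed to 61.3 to 113 CPM in OIR and 74.1 to 127 CPM in nonOIR, mostly from Cd79b, with Cd3e, Cd3d and Ncr1 among the genes at 0. The neutrophil and lymphocyte sums thus rest mainly on Csf3r and Cd79b, and which cells these transcripts came from was not tested.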

How the data were processed

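RNA was measured in 16 libraries, 8 of each group. As the labels' protocols state, 750 pg of RNA per library went into SMARTer v4 cDNA synthesis (12 amplification cycles), 150 pg of the cDNA into Nextera XT tagmentation, and single reads of 50 cycles were sequenced. Per the file headers, the authors deposited raw counts, which are whole numbers. Per the submitters' processing notes, mm10, DESeq2 2.11.40.2, featureCounts 1.6.2, STAR 2.6.0b-1 and FastQC 0.72 were used. The notes list them without roles, and no annotation is stated in the sources used here. The authors' normalized signal is each count times 1 factor for its library. The authors' deposited log2 fold changes, their standard errors and Wald score, and the authors' p-values were used only for comparison. Without molecular identifiers, floors cover counting error only.

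The counts were filtered with filterByExpr (minimum count 10, minimum total 15), scaled by TMM and tested two-sided with edgeR 4.0.16 in R 4.3.3 (robust glmQLFit, glmQLFTest), adjusted by Benjamini-Hochberg across 12496 genes, at a threshold of 0.05. The biological coefficient of variation was 40.3%. Adjusted p-values called edgeR's come from this test, and those for 1 lane, for a left-out library or without the filter were adjusted over the genes of that fit. The lane difference is the interaction of lane and group in the same test, adjusted over the same genes. Lanes were read from a code in the description label. Exon lengths, positions and overlaps came from GENCODE M21 (mm10), and promoter windows from RefSeq (GRCm38.p6), matched by symbol. Scripts were tested on simulated data. Libraries of a group all differed by more than sampling noise (lowest chi-square per gene 15.7).

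The 10 genes, the related lists and the tests were chosen with earlier results of these data known, so the lists are described by counts and medians without a test. All 10 genes are named. From each related list the text names up to 4 genes with the lowest p among those that passed and the direct partners (Cdk2, Cdk4, Cdk6, Cdkn2a, Cdkn2b, Cdkn2d, Skp2, Cks1b and Mki67), and from each cell type list up to 2 genes with the highest CPM. Fn1, Plac8, Itgal, S100a4, Ccr2, Glul, Ccna1, Plk2, Dtl, Cables1, Fbxo4, Exosc9, Ints8 and the genes at 0 were named after their values were seen. Alternatives covered scaling, the filter, lane, replicate number, DESeq2 1.42.0, limma-voom (limma 3.58.1) and the omission of each library. Same-numbered OIR and nonOIR libraries were not treated as pairs.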

Additional observations from a re-analysis of the deposited data

Results flagged for a closer look

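Cdkn1b in OIR replicate 1 stood at 9.18 CPM, far above the next highest OIR library at 4.73 CPM. In nonOIR the values were 5.33 to 9.38 CPM. The same library was the highest OIR library for Ccnd1 and Cdkn1c and the lowest for Ccne2, Ccna2 and Cdkn1a, and it stood apart on the second principal component. On the first component it lay between the other OIR libraries and the nonOIR libraries. What sets it apart was not tested.

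Cdkn2c in nonOIR replicate 6 stood at 18.9 CPM, far above the next highest nonOIR library at 11.7 CPM. It lay within the OIR range of 18.6 to 48.9 CPM. These were 2 of 22 groups of 8 libraries examined for a library far from the rest, where chance flags about 1 in 20.

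The OIR difference of Cdkn1a differed between the lanes by 1.86 on the log2 scale (edgeR interaction, adjusted p = 0.00701). The values in lane 2 were higher in all 3 OIR libraries than in any OIR library of lane 1, and lower in all 3 nonOIR libraries than in any nonOIR library of lane 1. Whether the code marks a batch of animals, of preparation or of sequencing cannot be told apart.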

How the results depend on the processing

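The 5 genes that rose and Cdkn1c kept their calls in all 16 fits that left out 1 library each and under every scaling, filter and tool tried, with lane as a covariate and with the replicate block. Exceptions came with fewer libraries. In lane 1 only, 2 of the genes passed as higher, with Ccne1, Ccne2 and Ccna2 no longer past the threshold, and in lane 2 only Ccne1 did not pass. Cdkn1b passed as lower, giving 2 lower genes, with limma-voom (-0.99, adjusted p = 0.0327), with OIR replicate 1 and nonOIR replicate 8 both left out (edgeR, -1.02, adjusted p = 0.0202; a setting chosen after the data were seen) and without OIR replicate 1, so the number of lower genes was 1 to 2 over the fits that left out 1 library. No fold change of the 9 genes changed sign.

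Over all genes, 798 passed as higher and 570 as lower. With lane as a covariate 1210 were higher and 949 lower, in lane 1 only 276 higher and 141 lower, and in lane 2 only 1260 higher. Library size alone gave 364 lower and no filter 343 lower. Leaving out 1 library gave 582 to 908 higher and 353 to 648 lower, and the count of lower genes was lowest without OIR replicate 6. The share of calls that were higher was 58.3% with TMM, 73.7% with library size alone, 60.3% with RLE size factors and 51.1% with upper quartile scaling. Same-numbered libraries deviated together at a correlation over 0.1 for numbers 6 and 7 only, both of lane 2. With the lane means of each group removed, those correlations were 0.057 and 0.064. In all, 2 of 8 numbers matched best with their own, so the replicate block is only an alternative. The block gave 5 higher and 1 lower of the 9 genes, and 965 higher and 714 lower over all genes. Depth limits Ccnd2 (111 counts in OIR and 26 counts in nonOIR), for which no difference was detectable. Of the related genes named, Cdkn2d also passed with DESeq2 and with both libraries left out, Mki67 with limma-voom and the replicate block, and Sesn1 lost its call with library size alone, no filter and the replicate block. Cdk4 lost its call with upper quartile scaling, limma-voom and no filter, Ccnf with limma-voom and Wee1 with the replicate block. In lane 1 only, Cdk4, Ccnf, Ccng1, Mcm7, Sesn1, Txnip, Wee1, Plk2, Cables1 and Fbxo4 lost their calls, as did the cell type markers Fn1, Cd44 and Glul. In lane 2 only, Klf2 and Sesn1 lost theirs. Plk2, Dtl, Cables1, Fbxo4, Fn1, Cd44 and Glul were followed in the lanes alone and not in the other alternatives. Cdkn2b, called in neither direction, ran from -0.12 (without OIR replicate 4) to 0.95 on the log2 scale over the fits that left out 1 library. With limma-voom 12 of the 26 E2F targets passed as higher.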

Other observations

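The authors' deposited table gives log2 fold changes with the same sign for all 10 genes. In the authors' deposited table Ccna2 stands at 1.73 ± 0.30 (SE, adjusted p = 6.70e-07), where the edgeR value is 3.45. Ccne2 stands there at 1.55 ± 0.29 (SE, adjusted p = 6.53e-06), where the edgeR value is 2.49. The DESeq2 fit made here on the deposited counts gave 3.47 ± 0.57 (SE) for Ccna2 and 2.51 ± 0.45 (SE) for Ccne2, close to the edgeR values. Both the fold changes and the SEs of these genes are thus smaller in the authors' table than in that fit. The reason was not tested. In the authors' deposited table Cdkn1c stands at -1.20 with the lowest adjusted p of the 10, 7.23e-15. The authors' deposited table puts Ccnd1, Ccnd2, Ccnd3 and Cdkn1b above an adjusted p of 0.05, at 0.287, 0.425, 0.0667 and 0.0617.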
